A study of Mus musculus with 6 samples.

Results

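The miRNAs described here carry the numbers miR-297, miR-466, miR-467 and miR-669, a rodent-specific group most of whose hairpins lie in an intron of the mouse gene Sfmbt2. Every row of the deposited miRNA table with one of these numbers was taken, with any letter, copy or arm, which gave 73 of 778 rows. Rows with the same values in all 6 libraries cannot be told apart, and after such rows were merged into 1 there were 61 members, of 682 in the merged table. Small RNA was sequenced from mouse primary mesangial cells, the contractile cells that hold the capillary loops of the kidney glomerulus together. All cells were kept in 25.5 mM glucose with 20% serum, at passages 3 to 6. The Control group (n = 3 libraries) had no cytokine, and the TGF-b1 group (n = 3 libraries) was exposed to 10 ng/ml of transforming growth factor β1, a cytokine that drives scarring of the glomerulus, for 72 h. The question of the comparison was which of these miRNAs change in amount after the cytokine.

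A miRNA hairpin is cut into a 5p and a 3p arm, and one or both can be loaded into the silencing complex, where the seed, bases 2 to 8 of the loaded arm, pairs with target mRNAs. Sfmbt2 encodes a Polycomb-group protein and is imprinted, and its intron holds a long run of repeated miRNA hairpins that are known for high levels in placenta and embryonic stem cells. In this family single members have been tied to separate targets, such as thrombospondin 1 for miR-467a and lipoprotein lipase for miR-467b.

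In the GENCODE vM1 annotation of the NCBIM37 mouse genome, the build the study used for its RNA reads, Sfmbt2 lies on the plus strand of chromosome 2 from 10292137 to 10516880. Hairpins with the 4 numbers were annotated 78 times, and 67 of these lay on the same strand in 1 intron of Sfmbt2, which runs from 10383100 to 10445571. They filled a stretch of 51336 bp, from 10388571 to 10439906, with 5 hairpins of miR-297, 21 of miR-466, 12 of miR-467 and 29 of miR-669. Copy number varied within the numbers. There were 12 copies of miR-669a, 8 of miR-467a and 8 of miR-466b, whereas miR-669c had 1 copy, at 10430923 to 10431031. The other 11 hairpins were elsewhere in the genome. Of the 73 rows, 58 matched hairpins of the intron only, 5 matched hairpins inside and outside it, 4 matched hairpins outside it only, and 6 had no hairpin of their name in the annotation. The map of the intron shows that hairpins of miR-466, miR-467 and miR-669 alternate over much of its length.

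**Figure D1:**
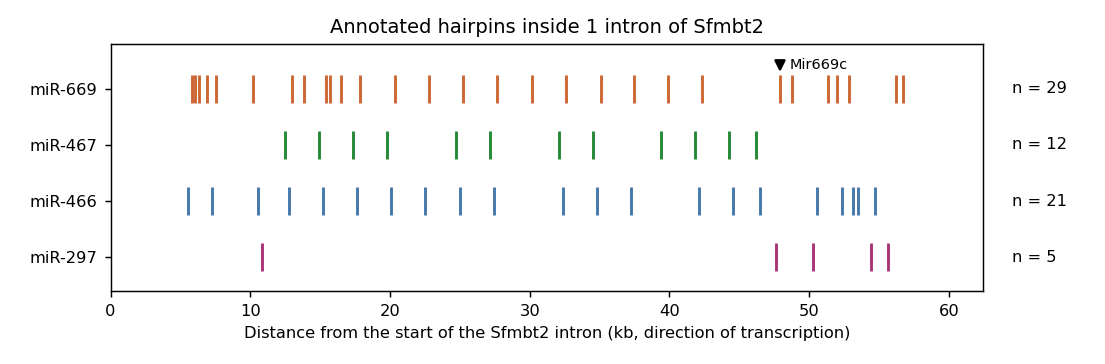
Annotated hairpins of the 4 numbers along 1 intron of Sfmbt2, with the distance from the start of the intron in kb on the horizontal axis and 1 row for each number. Each line is 1 hairpin, and the triangle marks Mir669c. There are 29 hairpins of miR-669, 12 of miR-467, 21 of miR-466 and 5 of miR-297.

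Mature sequences were matched by name in RefSeq (GRCm38.p6), which gave 4 of the 73 rows. They are shown 5′ to 3′, with the seed in capitals, so that the repeat-like make-up of these 4 rows can be read directly. None of the 4 was matched to a hairpin of the Sfmbt2 intron, so they do not show the make-up of the hairpins there.
miR-466i-3p: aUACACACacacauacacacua
miR-466q: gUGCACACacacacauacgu
miR-466k: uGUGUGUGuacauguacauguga
miR-669n: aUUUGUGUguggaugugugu
Their seeds were 4 different ones. A or C made up 86.4% of miR-466i-3p and 70.0% of miR-466q, whereas U or G made up 69.6% of miR-466k and 90.0% of miR-669n. In NCBIM37 the hairpin of miR-466i is outside Sfmbt2, on chromosome 13 from 17839307 to 17839427, in an intron of Cdk13 on the strand opposite to that gene. Those of miR-466k (chromosome 3, 85271299 to 85271420) and miR-669n (chromosome 3, 115682820 to 115682873) lay likewise opposite to Arfip1 and Slc30a7, each in an intron. Of these 4 only miR-466i-3p had enough reads to be tested, and its levels are given with the 3p arms. The rows miR-466k, miR-466q and miR-669n held 2, 2 and 5 reads over all 6 libraries.

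The values are reads per 1000000 reads of the library (RPM), from which the whole reads could be recovered. Library totals ran from 16478281 to 20169254 reads, so that 1 read was worth 0.0496 to 0.0607 RPM and a count of 0 allows up to 0.149 to 0.182 RPM (the worth of 3 reads, which covers counting error alone, as PCR copies are not separate molecules). The listed rows took 79.6% ± 0.142 (SD, n = 3) of a Control library and 72.3% ± 0.752 (SD, n = 3) of a TGF-b1 library. The summed level of 4 mesenchymal marker miRNAs was 2575 to 2946 RPM in Control and 2603 to 3066 RPM in TGF-b1, while that of 5 epithelial marker miRNAs was 22.2 to 25.4 and 1.68 to 2.53 RPM. The part of other cells in the changes of the family was not tested. For 3 skeletal or cardiac muscle markers the sums were 3440 to 3646 RPM and 3285 to 3465 RPM, and for 2 neuron markers 2.06 to 2.40 RPM and 1.40 to 1.93 RPM. The haematopoietic and endothelial markers that were listed each had under 1 RPM in every library, and none of the 8 names of embryonic stem cell miRNAs was listed. In RNA of whole cultures, fewer cells of a type and less RNA per cell cannot be told apart. Nothing in the labels says that the libraries of a group came from separate cultures, so p-values measure the spread between these libraries.

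One member held nearly all reads of the family. The level of miR-669c-5p was 968.1, 899.7 and 942.3 RPM in the Control libraries and 928.2, 978.3 and 984.9 RPM in the TGF-b1 libraries. The groups overlapped. Its mean was 936.7 ± 34.5 RPM in Control and 963.8 ± 31.0 RPM in TGF-b1 (SD, n = 3 each). The log2 change was 0.04 with its SE at 0.07 (limma adjusted p = 0.650). Under the other 4 scalings the log2 change was 0.18 to 0.26, with limma adjusted p-values from 0.0664 to 0.254. By mean level it was number 35 of the 778 rows. It made up 88.1% to 94.3% of the reads of the family in each library, and all members together made up 0.0985% to 0.111% of a library. The other arm of the same hairpin, miR-669c-3p, had 1 or 2 reads per library, or 0.0567 to 0.112 RPM. The sum over all members was 1038.6 ± 39.9 RPM in Control and 1043.9 ± 62.1 RPM in TGF-b1 (SD, n = 3 each), and so mostly reports 1 miRNA.

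By name, 27 members were 5p arms, 27 were 3p arms and 7 gave no arm. Enough reads for a test were found for 23 of the 61 members, 12 of them 5p and 11 of them 3p arms. These passed a filter on reads that the libraries themselves set, so they do not stand for all members. The study's results list miRNAs, tested with DESeq, at a log2 change beyond 1 in either direction and an adjusted p under 0.05. Its methods name a larger fold. At the threshold of its results 0 members were higher and 0 were lower in limma, where 4.41% of all 408 rows tested were higher and 7.84% lower. The limma fit is on log2(RPM + 1), where a member under 1 RPM in Control cannot fall by more than 1. An example is miR-467e-3p, with a Control mean of 0.813 RPM, and members just above 1 RPM hardly can. At an unadjusted p under 0.05 alone 5 members were lower and 0 higher, where 55.9% of all rows tested passed in either direction. With the fold and adjusted p thresholds together edgeR called 1 member lower, miR-466c-5p, under TMM and under library totals. Of all rows tested, 10% and 13.2% were lower in these 2 runs. DESeq2 called 0 members, where 7.6% of all rows tested were lower and 11.3% higher. At an adjusted p under 0.05 and any fold, 3 members were lower and 0 higher in limma, whereas 31.9% of all rows tested were lower and 17.4% higher. The share of members called was below the background in both directions. With 23 members, some sharing reads and several near 1 RPM, this is not read as a trait of the family. The median log2 change of the 23 members was -0.34, and 21 of the 23 were below 0. Of all 408 rows tested, 257 were below 0. For all rows tested the median was -0.17 on this scale. With TMM scaling these medians were -0.22 and -0.07, so a change of about -0.17 on the scale of library totals is that of the typical row.

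**Figure D2:**
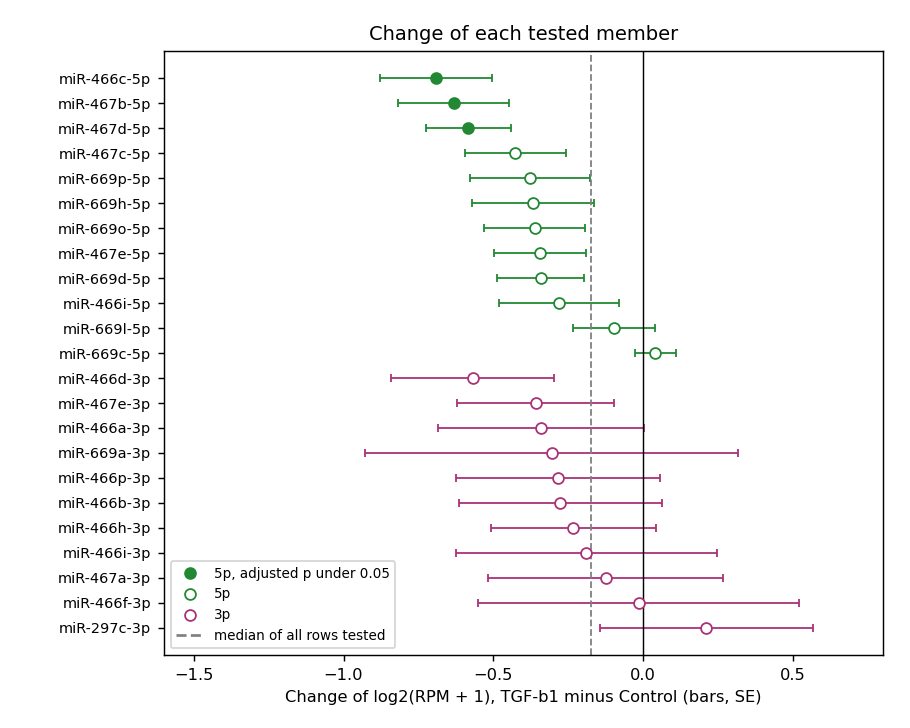
Change of log2(RPM + 1) from Control to TGF-b1 for each of the 23 tested members, 5p arms above and 3p arms below, with bars for the SE of the limma fit. Filled points are the 3 members with an adjusted p under 0.05, all 5p arms, and the dashed line is the median of all rows tested at -0.17. The bars of most 3p arms are wider than those of the 5p arms.

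The plot of log2 changes shows the arms apart, and the values behind it are given first for the 5p arms. All 4 members among the 5p arms of miR-467 were tested. The level of miR-467b-5p, in values shared with miR-467a-5p, was 15.7, 12.8 and 9.36 RPM in Control and 7.64, 7.70 and 7.55 RPM in TGF-b1. Every TGF-b1 library was below every Control library, and the 3 TGF-b1 libraries were nearly level with each other. It fell to 0.604 of the Control mean, a log2 change of -0.63 with an SE of 0.19 (limma adjusted p = 0.0229). The call rests on the set of libraries and on the scaling, since the adjusted p was above 0.05 in limma without Control replicate 1, Control replicate 2, TGF-b1 replicate 2 or TGF-b1 replicate 3 (0.0792, 0.0768, 0.0614 and 0.0539) and with median-of-ratios scaling or scaling to the sum of the listed rows (0.0582 and 0.0569), as it was in DESeq2 (0.0852). Because the values of its rows are shared, they cannot be assigned to the 1 hairpin of miR-467b at 10402875 to 10402947 or to the 8 hairpins of miR-467a.

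The single hairpin of miR-467d lies at 10429257 to 10429341. MiR-467d-5p had 6.55, 8.21 and 6.30 RPM in Control and 4.41, 4.35 and 4.21 RPM in TGF-b1. Again no library of one group reached into the other. It fell to 0.616 of the Control mean, with a log2 change of -0.58 with an SE of 0.14 (limma adjusted p = 0.0106), and its limma call held without each library in turn and under each other scaling. DESeq2 gave an adjusted p of 0.156 for it. The level of miR-467c-5p was 6.25, 5.93 and 4.99 RPM in Control and 4.71, 3.13 and 4.27 RPM in TGF-b1, also without overlap. This member was just outside the threshold, with a log2 change of -0.43 with an SE of 0.17 (limma adjusted p = 0.0677), as miR-467b-5p was just inside it. MiR-467e-5p had 6.68, 5.87 and 5.05 RPM in Control against 4.12, 4.02 and 5.09 RPM in TGF-b1, where TGF-b1 replicate 3 reached the lowest Control library. Its log2 change was -0.34 ± 0.15 (SE, limma adjusted p = 0.101). Of the 4 tested members whose libraries did not overlap, 3 were these 5p arms of miR-467, and all 4 were lower in TGF-b1. Among all rows tested the libraries did not overlap with TGF-b1 below for 36% and with TGF-b1 above for 20.8%.

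Among the 5p arms of miR-466, 2 of 10 members were tested. For miR-466c-5p, which has 2 hairpins in the intron at 10403158 to 10403247 and 10405593 to 10405682, the levels were 1.64, 2.82 and 1.42 RPM in Control and 0.793, 0.670 and 0.936 RPM in TGF-b1. The groups did not overlap. It fell to 0.408 of the Control mean, a log2 change of -0.69 ± 0.19 on the log2(RPM + 1) scale (SE, limma adjusted p = 0.0167). That scale understates the change of a miRNA near 1 RPM, and with a pseudocount of 0.1 the log2 change was -1.14. Without TGF-b1 replicate 2 the limma adjusted p was 0.0581, and DESeq2 gave 0.0882. MiR-466i-5p, the opposite arm of the sequence printed above, had 0.850, 0.839 and 1.59 RPM in Control and 0.347, 1.005 and 0.819 RPM in TGF-b1, with overlap between the groups. Its log2 change was -0.28 ± 0.20 (SE, limma adjusted p = 0.283).

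Beside miR-669c-5p, 5 of the 5p arms of miR-669 were tested, all at low levels and all with overlapping groups. The level of miR-669p-5p, shared with miR-669a-5p, was 2.97, 4.14 and 2.89 RPM in Control and 2.38, 1.62 and 3.10 RPM in TGF-b1. MiR-669a has been described as a repressor of the muscle programme in cardiac progenitor cells. MiR-669l-5p had 1.34, 1.44 and 0.965 RPM in Control and 1.29, 0.949 and 1.05 RPM in TGF-b1. For miR-669h-5p the levels were 0.728, 1.68 and 1.08 RPM, then 1.04, 0.558 and 0.410 RPM. The groups of miR-669l-5p overlapped across most of their range, whereas in miR-669h-5p only TGF-b1 replicate 1 was above the lowest Control library. The levels of miR-669o-5p were 1.46, 0.719 and 1.19 RPM in Control and 0.545, 0.502 and 0.878 RPM in TGF-b1. For miR-669d-5p they were 1.09, 0.839 and 1.08 RPM, then 0.446, 0.447 and 0.878 RPM. In these last cases only TGF-b1 replicate 3 was above the lowest Control library. The log2 changes of the 5 members ran from -0.38 for miR-669p-5p to -0.10 for miR-669l-5p, with limma adjusted p-values from 0.0845 to 0.602.

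**Figure D3:**
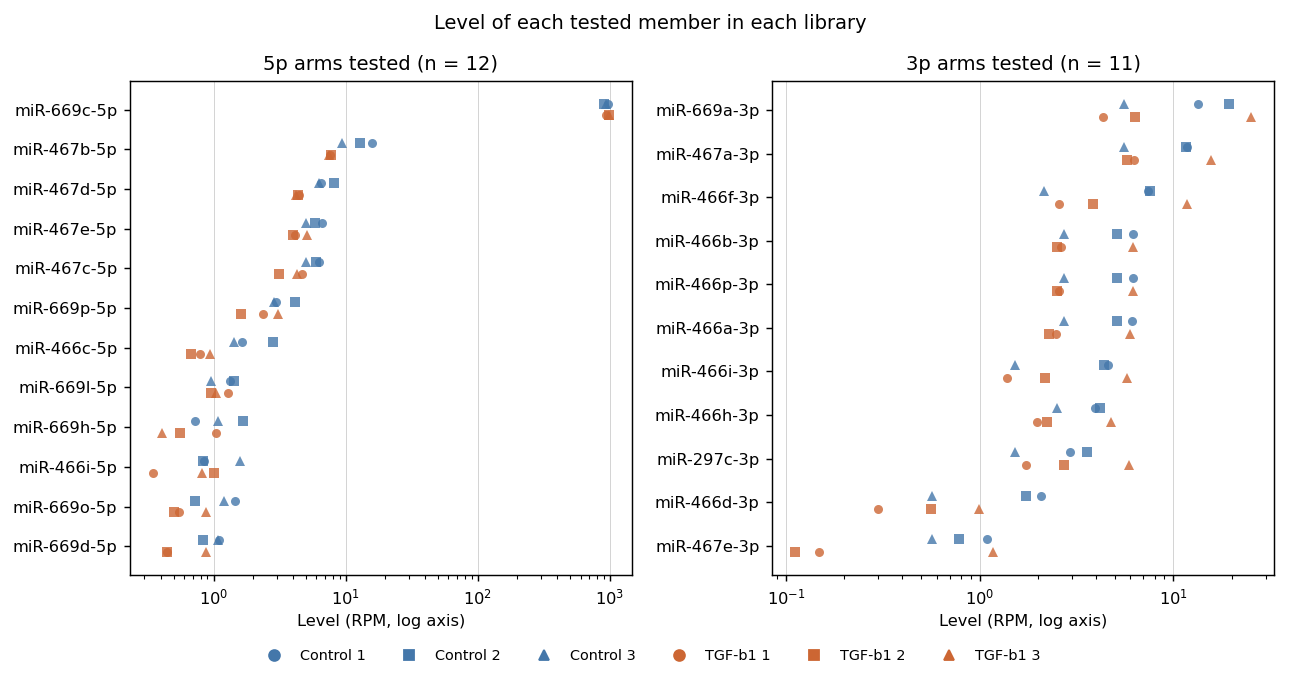
Level of each tested member in each of the 6 libraries, in RPM on log axes whose ranges differ between the panels, with the 12 5p arms on the left and the 11 3p arms on the right. Blue is Control and orange TGF-b1, and the shape gives the replicate number. MiR-669c-5p, at 899.7 RPM or more, stands far above all other members. In the right panel the orange triangle, TGF-b1 replicate 3, is far to the right of the other orange points in every row.

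Summed over all 5p members other than miR-669c-5p, tested or not, the level was 47.2, 48.5 and 38.0 RPM in Control and 29.2, 26.5 and 31.2 RPM in TGF-b1. All TGF-b1 libraries were below all Control libraries. The mean was 44.5 ± 5.74 RPM in Control and 29.0 ± 2.35 RPM in TGF-b1 (SD, n = 3 each), a ratio of 0.650. Leaving out miR-669c-5p was decided after its level had been seen. The ratio lay between 0.717 and 0.757 under the other 4 scalings, and the groups did not overlap under these or without any 1 library. Summed 5p arms of miR-467 went from 31.3 ± 4.95 to 20.4 ± 1.05 RPM, those of miR-466 from 4.22 ± 0.716 to 2.02 ± 0.388 RPM, and those of miR-669 without miR-669c-5p from 8.69 ± 1.19 to 6.21 ± 1.26 RPM (SD, n = 3 each). In each of these 3 groups the TGF-b1 libraries were all below the Control libraries on the scale of library totals. For miR-669 this depends on the scaling. Control replicate 1 had 7.95 RPM and TGF-b1 replicate 3 had 7.43 RPM, and division by their TMM factors, 1.11 and 0.983, reverses that order. The 5p arms of miR-297, at 0.376 ± 0.142 and 0.339 ± 0.0928 RPM (SD, n = 3 each), overlapped.

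The 3p arms gave another picture. Their summed level was 68.3, 71.6 and 29.3 RPM in Control and 27.7, 32.4 and 92.4 RPM in TGF-b1. Control replicate 3 was thus near TGF-b1 replicates 1 and 2, and TGF-b1 replicate 3 was above all others. The means, 56.4 ± 23.5 RPM in Control and 50.8 ± 36.0 RPM in TGF-b1 (SD, n = 3 each), had SDs that exceeded their difference. The ratio of the means, 0.900, became 0.533 without TGF-b1 replicate 3 and 0.726 without Control replicate 3, and the groups overlapped in each case. By number, the summed 3p arms went from 28.3 ± 11.7 to 24.1 ± 15.6 RPM for miR-466, from 10.9 ± 3.91 to 9.85 ± 6.28 RPM for miR-467, and from 14.5 ± 7.64 to 13.4 ± 12.0 RPM for miR-669 (SD, n = 3 each). The sums of miR-466 and of all 3p arms include miR-466a-3p, miR-466b-3p and miR-466p-3p, which may hold mostly the same reads, as described below. In each number group Control replicate 3 was the lowest Control library and TGF-b1 replicate 3 the highest of all 6. The 3p arms of miR-297 are a single tested member, given below.

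**Figure D4:**
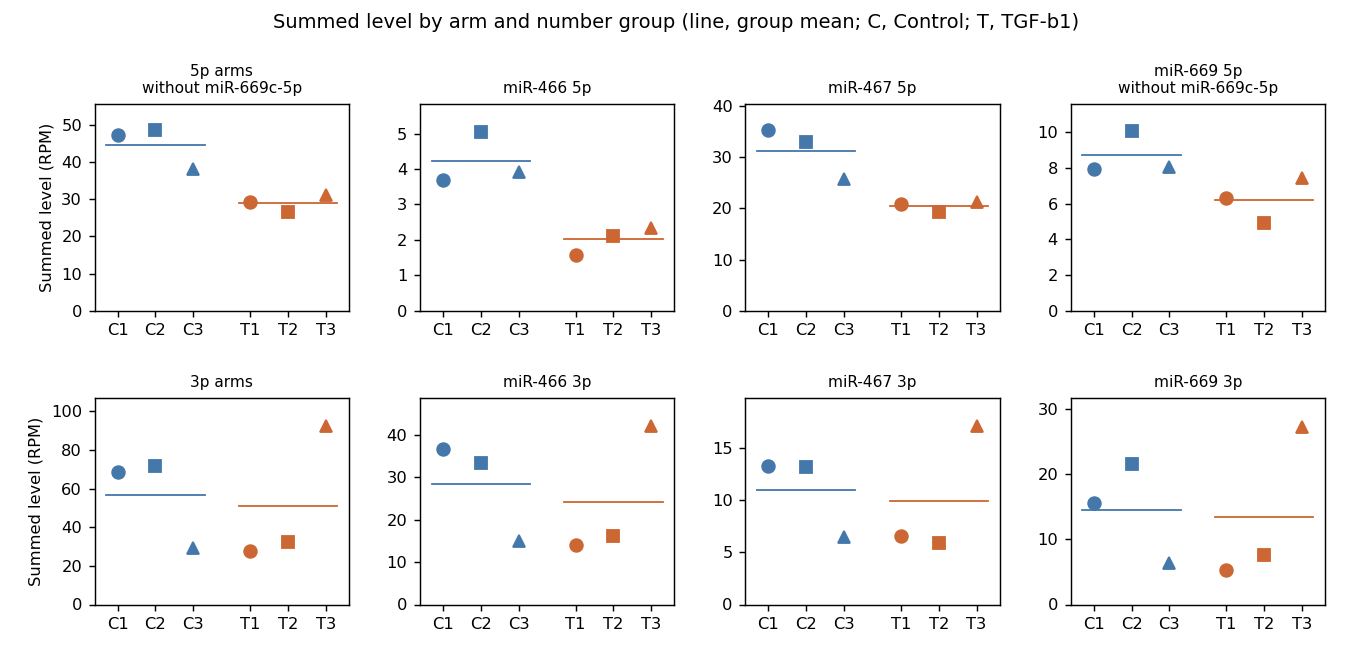
Summed level in RPM in each library, for 5p arms without miR-669c-5p (top) and 3p arms (bottom), over all such members at the left and for miR-466, miR-467 and miR-669 beside it. Points are libraries, lines are group means, and each panel has its own scale from 0. In the top panels the TGF-b1 points lie below the Control points, and in the bottom panels TGF-b1 replicate 3 is the highest point.

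The tested 3p members are given singly next. The most abundant, miR-669a-3p, in values shared with miR-669o-3p, had 13.4, 19.4 and 5.56 RPM in Control and 4.31, 6.31 and 25.2 RPM in TGF-b1. TGF-b1 replicate 3 was here the highest library and Control replicate 3 close to TGF-b1 replicates 1 and 2. The level of miR-467a-3p, shared with miR-467d-3p, was 11.7, 11.7 and 5.56 RPM in Control and 6.30, 5.75 and 15.6 RPM in TGF-b1. That of miR-467e-3p was 1.09, 0.779 and 0.567 RPM in Control and 0.149, 0.112 and 1.17 RPM in TGF-b1. In this member TGF-b1 replicates 1 and 2 were at or below the level that a count of 0 allows.

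In all 7 tested 3p members of miR-466 Control replicate 3 was the lowest Control library and TGF-b1 replicate 3 the highest TGF-b1 library. MiR-466f-3p had 7.40, 7.61 and 2.16 RPM in Control and 2.58, 3.85 and 11.8 RPM in TGF-b1. MiR-466b-3p, whose values also stand for miR-466c-3p and miR-466e-3p, had 6.19, 5.10 and 2.72 RPM in Control and 2.63, 2.51 and 6.20 RPM in TGF-b1. The rows of miR-466p-3p (6.19, 5.10 and 2.72 RPM, then 2.58, 2.51 and 6.20 RPM) and miR-466a-3p (6.13, 5.10 and 2.72 RPM, then 2.48, 2.29 and 5.97 RPM) were so close to it that they may hold mostly the same reads, and they are not separate evidence. In miR-466a-3p TGF-b1 replicate 3 was below Control replicate 1. The counting of reads with more than 1 matching miRNA is not given in the sources used here. MiR-466i-3p, encoded outside Sfmbt2 and made of the AC-rich sequence shown above, had 4.61, 4.38 and 1.53 RPM in Control and 1.39, 2.18 and 5.79 RPM in TGF-b1. TGF-b1 replicate 3 was again its highest library. The level of miR-466h-3p was 3.94, 4.20 and 2.50 RPM in Control and 1.98, 2.23 and 4.74 RPM in TGF-b1. For miR-466d-3p it was 2.06, 1.74 and 0.567 RPM, then 0.298, 0.558 and 0.995 RPM. Here TGF-b1 replicate 3 was the highest TGF-b1 library but below Control replicates 1 and 2. The 1 tested member of miR-297, miR-297c-3p, in values shared with miR-297a-3p and miR-297b-3p, had 2.91, 3.60 and 1.53 RPM in Control and 1.74, 2.74 and 5.91 RPM in TGF-b1. It was the only tested 3p member with a log2 change above 0, at 0.21 ± 0.36 (SE, limma adjusted p = 0.650), and this turned to -0.16 without TGF-b1 replicate 3 and to -0.04 without Control replicate 3. The other 10 had log2 changes from -0.57 for miR-466d-3p to -0.01 for miR-466f-3p, and the limma adjusted p of the 11 ran from 0.121 to 0.981. Without TGF-b1 replicate 3 miR-467e-3p passed (log2 change -0.67, limma adjusted p = 0.0148), and without Control replicate 3 miR-466d-3p passed (-0.86, limma adjusted p = 0.00962).

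The order of libraries was then counted in the same way for all rows, as a description chosen after it had been seen. All 11 tested 3p members had Control replicate 3 as the lowest Control library and TGF-b1 replicate 3 as the highest TGF-b1 library, against 3 of 12 tested 5p members. Among the other rows tested this held for 79 (21.0%), and among those of them that are 3p arms for 39 (22.5%). In the 3p members TGF-b1 replicate 3 was 2.25 to 8.99 times the mean of the other TGF-b1 libraries, with a median of 2.59. The highest of these ratios is that of miR-467e-3p and rests on 20 reads against 3 and 2. The median was 1.15 over the 5p members and 1.02 over the other rows. A ratio above 2 was found in 11 of 11 tested 3p members, 0 of 12 tested 5p members and 8 of the other rows. In the 11 tested 3p members Control replicate 3 was 0.287 to 0.613 of the mean of the other Control libraries. Several of the 11 rows share reads or sequence and do not count as separate observations. The totals of these libraries were 17623671 and 17086815 reads. What the pattern comes from was not tested.

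For 7 hairpin names both arms were among the tested members. The ratio of the arms has the 3p level as its denominator, so it largely repeats the pattern of the 3p arms given above. For miR-467a the ratio of the 5p to the 3p level was 1.34, 1.10 and 1.68 in Control and 1.21, 1.34 and 0.485 in TGF-b1. The 5p row was the higher in every library but TGF-b1 replicate 3. Its values are shared with miR-467b-5p and those of the 3p row with miR-467d-3p, so this cannot be assigned to miR-467a. For miR-467d the ratio was 0.560, 0.703 and 1.13 in Control and 0.701, 0.757 and 0.271 in TGF-b1. The largest ratios were those of miR-467e, with 6.11, 7.54 and 8.90 in Control and 27.7, 36.0 and 4.35 in TGF-b1, the larger of which rest on the few reads of its 3p arm. For miR-669a, miR-669o and miR-466c the 3p row had the higher level in all 6 libraries, in values that other hairpin names share. The ratio was lowest of the 6 libraries in TGF-b1 replicate 3 for all 7 names. This follows largely from the high 3p levels of that library and is not a further observation. The rows of miR-467a-3p and miR-467d-3p hold the same values, as do those of miR-669a-3p and miR-669o-3p and of miR-467a-5p and miR-467b-5p. The 7 ratios are thus not independent. Values are also shared by miR-466c-3p with miR-466b-3p and miR-466e-3p, and by miR-669a-5p with miR-669p-5p. Where a row is shared, the ratio can mix reads of different hairpins and does not show the arm use of 1 hairpin.

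**Figure D5:**
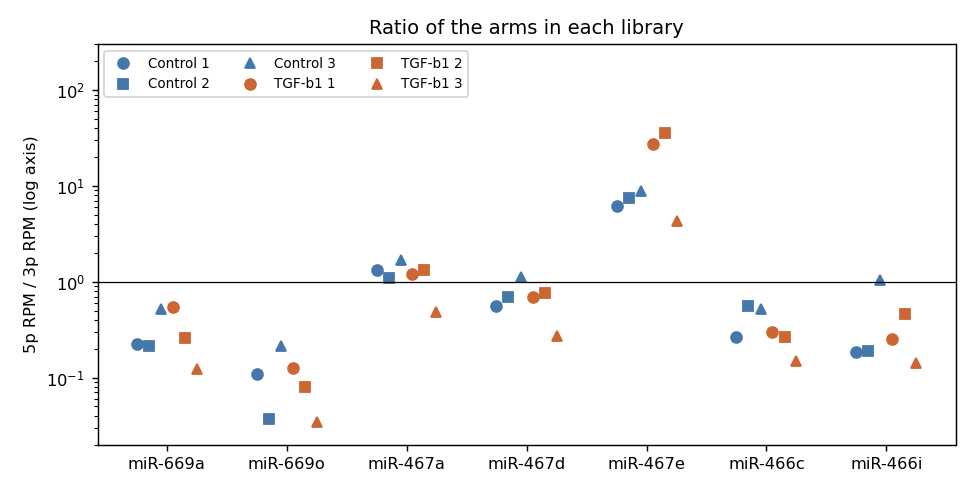
Ratio of the 5p to the 3p level (RPM / RPM, log axis) in each library for the 7 hairpin names with both arms among the tested members. Blue is Control, orange TGF-b1, the shape gives the replicate number, and the line marks equal arms. The orange triangle, TGF-b1 replicate 3, is the lowest point of every name, which largely repeats the high 3p levels of that library.

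The 38 members that were not tested held 1 to 40 reads over all 6 libraries, with a median of 10.5, and none exceeded 0.719 RPM in a library. A count of 0 was found in some library for 25 of them. Their summed level was 5.62 ± 1.61 RPM in Control and 3.78 ± 1.26 RPM in TGF-b1 (SD, n = 3 each). At this depth a change of a single such member was mostly not detectable. In 5 of them (miR-466g, miR-466f, miR-466b-5p, miR-466d-5p and miR-466e-5p) all TGF-b1 libraries were below all Control libraries, and in 1 (miR-297b-5p) all were above. Among all 370 rows that were not tested this held for 10.5% with TGF-b1 below and for 7.03% with TGF-b1 above. Of these, miR-466g had 6, 12 and 12 reads in Control and 0, 2 and 3 reads in TGF-b1, or 0.364, 0.719 and 0.681 RPM against 0, 0.112 and 0.176 RPM. With no filter on low values its limma adjusted p was 0.0087, with a log2 change of -0.53. Also without the filter, miR-466b-5p (0.0309) and miR-466d-5p (0.0178) had a limma adjusted p under 0.05, on at most 5 reads in any library. With no filter 18.1% of all 778 rows were lower at that threshold. These names were chosen after their values were seen. At least 1 read was found for 52, 52 and 52 members in the Control libraries and for 47, 48 and 51 in the TGF-b1 libraries, and at least 10 reads for 24, 26 and 24 against 19, 20 and 23. Both counts were lower in every TGF-b1 library than in any Control library. Of the 705 rows that are not members, 584, 580 and 576 had a read in Control and 580, 573 and 568 in TGF-b1, with overlap between the groups, and the numbers with at least 10 reads overlapped as well. The smaller part of the library that the listed rows took in TGF-b1, given above, goes with these counts, and its part in them was not tested.

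The family was set beside other lists by counts alone. In the distal Dlk1-Dio3 cluster, another large block of miRNAs at an imprinted locus, 26 of 61 merged rows were tested, and at any fold 19 were higher and 0 lower in limma, with a median log2 change of 0.69. Of 170 merged rows with hairpin numbers of 1000 and above, which were likewise named late, 61 were tested, with 6 higher, 13 lower and a median of -0.12. Of the Sfmbt2 numbers 23 members were tested, with 0 higher and 3 lower (13.0%), and the median over all 23 was -0.34. Of all 408 rows tested 17.4% were higher and 31.9% lower, with a median of -0.17 on the same scale of library totals.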

How the data were processed

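Small RNA of 6 libraries was sequenced and, per the study's methods, reads shorter than 18 nt were removed and the rest compared with miRBase 17 using Bowtie. The authors deposited 1 table with values they call TPM. These are named RPM here, reads in every 1000000 of the library, since 1 read was worth the same in every row. Whole reads were recovered from all deposited RPM values within a tolerance of 0.002 reads. Rows were kept by filterByExpr of edgeR 4.0.16 with a minimum count of 10, and log2(RPM + 1) was fitted with limma 3.58.1 (R 4.3.3) under a trended prior with group as the only term, with Benjamini-Hochberg adjustment over the 408 rows tested. Identical rows were merged for counting only. Values by library are given for every tested member, and other names were chosen after their values were seen. Members and lists were chosen with earlier results of these data known. The alternatives, DESeq2 1.42.0 among them, are given below. At totals of 16478281 to 20169254 reads, a count of 0 allows a level of up to 0.149 to 0.182 RPM. Hairpins were matched by name to GENCODE vM1.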

Additional observations from a re-analysis of the deposited data

How the results depend on the processing

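No member was higher at an adjusted p under 0.05 under any alternative run (at most 1 at an unadjusted p, with median-of-ratios and listed-rows scaling). Lower with a log2 change beyond 1 were 0 members, against 1 (miR-466c-5p) with a pseudocount of 0.1, with edgeR under TMM and with edgeR under library totals (7.84% of all rows, against 13.2%, 10% and 13.2%). Lower at any fold were 3, against 6 with no filter on low values and 0 with DESeq2 (2 at an unadjusted p under 0.05), where 31.9%, 18.1% and 17.6% of all rows tested were lower. Leaving out each library gave 2 to 5, the 5 without TGF-b1 replicate 1 or without TGF-b1 replicate 3 and the 2 without TGF-b1 replicate 2 (33.4%, 27.9% and 23.5% of all rows), and 0 to 0 with the fold threshold.

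The summed log2 ratio of all members, 0.007, was 0.160 with TMM, 0.149 with upper quartile, 0.222 with median of ratios, 0.146 when scaled to the sum of the listed rows, and -0.35 without miR-669c-5p (chosen after seeing the data). For the 5p arms the ratio of 0.017 became 0.169, 0.158, 0.231, 0.156 and -0.62 in the same order. These shifts follow the scaling factors and the 1 abundant member by construction.

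Direction was reversed for 6 members, none of them called. MiR-466f-3p (-0.01) was 0.12 with TMM, 0.11 with upper quartile, 0.17 with median of ratios, 0.098 with the listed rows, 0.0084 with a pseudocount of 10, 0.24 and 0.079 with edgeR under TMM and library totals, and 0.31 with DESeq2. MiR-467a-3p (-0.13) was 0.012 with TMM, 0.068 with median of ratios, 0.086 with edgeR under TMM and 0.14 with DESeq2. MiR-669a-3p (-0.30) was 0.057 with edgeR under TMM and 0.12 with DESeq2, miR-466i-3p (-0.19) was 0.050 with DESeq2, and miR-669l-5p (-0.10) was 0.022 with median of ratios and 0.043 with DESeq2. With each library left out in turn, miR-466f-3p ran from -0.55 to 0.36, miR-467a-3p from -0.54 to 0.11, miR-669a-3p from -0.995 to 0.16, miR-466i-3p from -0.62 to 0.13 and miR-297c-3p (0.21) from -0.16 to 0.51. The cause was not tested.

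Replicate numbers gave no pairing of the libraries: deviations of libraries with the same number correlated at -0.08, -0.21 and -0.34 across the rows tested. With a replicate block 3 members were lower at any fold, 0 with the fold threshold and 0 higher, where 28.2% of all rows were lower at any fold and 15% higher. Depth limits the 38 untested members, whose changes rest on at most 40 reads each.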
